A study of Homo sapiens with 24 samples.

Results

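The 10 small nucleolar RNA (snoRNA) host lncRNA genes GAS5, ZFAS1, SNHG1, SNHG3, SNHG5, SNHG6, SNHG7, SNHG8, SNHG12 and SNHG15 were followed by name through 24 RNA-seq libraries, and all 10 were found among the 60641 gene symbols that the libraries share. They form 8 groups of 3 from a pair of established human cell lines, A549 (from a lung adenocarcinoma) and HCT116 (from a colorectal carcinoma). In the KO groups CRISPR/Cas9 removed the DNA-binding domain (DBD) of a lncRNA transcript: MSTRG.2513.6 KO in A549 and in HCT116, MSTRG.4401.1 KO likewise, and MSTRG.34636.7 KO in HCT116 alone. A549 had 1 unedited group, WT B, and HCT116 had WT A (libraries 1A to 3A, the same numbers as MSTRG.34636.7 KO) and WT B (S-numbered libraries, as in all other groups). No agent, dose or time point separates the groups, and the labels do not say whether a KO is 1 clone or whether the 3 libraries of a group came from separate cultures, so p-values measure the spread between these libraries. The counted symbols include 0 under the names of the deleted transcripts, so no library could be checked for its KO here.

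A snoRNA host gene is transcribed and spliced, and snoRNAs are cut out of its introns. Box C/D snoRNAs guide 2′-O-methylation of ribosomal RNA and H/ACA snoRNAs guide pseudouridylation or pre-ribosomal RNA processing. The spliced remainder is the lncRNA. Many host transcripts begin with a 5′ terminal oligopyrimidine (5′TOP) tract, the element that ties ribosomal protein mRNAs to growth signalling, and many carry short reading frames that expose them to nonsense-mediated decay (NMD). The level of a host lncRNA therefore reflects transcription and decay together and is not a measure of its snoRNAs. Among the 10 genes GAS5, ZFAS1, SNHG1, SNHG5 and SNHG6 host box C/D snoRNAs, SNHG3, SNHG7, SNHG8 and SNHG15 host H/ACA snoRNAs, and SNHG12 hosts both kinds.

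The transcript starts are shown because a 5′TOP tract is the sequence feature that host genes are known to share with ribosomal protein genes. Of the 10 genes 8 had a window in the table of sequences at RefSeq starts (GRCh38.p14), and SNHG6 and SNHG15 had none. Each line gives 10 bases before the start and 20 from it, 5′ to 3′ on the gene's strand. Capitals mark a tract, written as a C followed by at least 4 pyrimidines with its C within 10 bases of the start. In SNHG7 a second stretch, cctct, which spans the start, also meets this definition and is left in lower case. GAS5 alone is given a second time, at the start of its GENCODE canonical transcript on hg38. The GENCODE canonical starts of SNHG1, SNHG3, SNHG5, SNHG8 and SNHG12 also differ from their RefSeq starts and were not searched.
GAS5 (RefSeq): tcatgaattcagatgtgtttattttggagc
GAS5 (GENCODE): accatactgtCTTTTCgaggtaggagtcga
ZFAS1: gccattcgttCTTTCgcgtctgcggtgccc
SNHG1: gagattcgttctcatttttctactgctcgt
SNHG3: gtgagtttctgattctctaactgcgcatgc
SNHG5: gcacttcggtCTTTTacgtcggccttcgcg
SNHG7: CCTTCTCgtcctctgcgtgcgccggaggct
SNHG8: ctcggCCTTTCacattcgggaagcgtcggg
SNHG12: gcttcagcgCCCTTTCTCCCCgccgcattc
The windows lie on chromosome 1 from 173869026 to 173869055 for GAS5 at the RefSeq start and from 173867970 to 173867999 at the GENCODE start, on chromosome 20 from 49278632 to 49278661 for ZFAS1, on chromosome 11 from 62855866 to 62855895 for SNHG1, and on chromosome 1 from 28505933 to 28505962 for SNHG3. The others lie on chromosome 6 from 85678714 to 85678743 for SNHG5, on chromosome 9 from 136728165 to 136728194 for SNHG7, on chromosome 4 from 118278752 to 118278781 for SNHG8, and on chromosome 1 from 28581854 to 28581883 for SNHG12. ZFAS1, SNHG3 and SNHG8 are on the plus strand and the others on the minus strand. A tract was found in 5 of 8 RefSeq windows (62.5%), against 32.3% of all 27305 windows in the table and 55 of 63 ribosomal protein genes (87.3%). In ZFAS1 and SNHG5 the tract began exactly at the start. The E-box CACGTG, searched over 250 bases before to 50 after the start (the letters read the same on both strands), was found in 1 of 8 genes, SNHG7 (12.5%), against 7.43% of all windows, and also around the GENCODE start of GAS5. A match describes these letters and no more.

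Library totals ran from 25799359 to 102261808 counts, at which 3 counts correspond to 0.0293 to 0.116 CPM (counts scaled to a library total of 1000000). The lowest count of any member was 95, for SNHG6 in an A549 MSTRG.4401.1 KO library, and the lowest for any of the other 9 genes was 708. Cell-line identity was checked with 6 NRF2 target genes (AKR1B10, AKR1C1, AKR1C2, AKR1C3, GPX2 and ALDH3A1), which A549 is known to express strongly. Their summed level was 6954 to 9785 CPM in the 9 A549 libraries and 7.21 to 15.8 CPM in 13 of the 15 libraries labelled HCT116. The exceptions were libraries S8 and S9 of HCT116 MSTRG.2513.6 KO, at 9102 and 8918 CPM, while the third library of that group, S11, was at 15.8 CPM. S8 and S9 go against their labels, and the members' tests in that group are given with and without them. Tissue markers were low and gave mixed signs of the origin of the lines. The 6 intestinal markers summed to 7.04 to 25.7 CPM over all libraries. Between A549 WT B and HCT116 WT B, 3 of the 4 tested were higher in A549 (CDH17 at 5.21 to 7.77 against 0.482 to 0.687 CPM). The other, CDX2, was lower in A549, as origin would have it, with 0.488 to 1.20 against 18.2 to 19.4 CPM. Within HCT116 MSTRG.2513.6 KO its median was 0.636 CPM and its highest value 18.2 CPM. The alveolar markers summed to at most 8.67 CPM in any library, with NKX2-1 at 0 to 0.265 CPM in A549 WT B and 1.20 to 1.32 CPM in HCT116 WT B.

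In wild-type cells the host lncRNAs were lower in A549 than in HCT116 for 9 of the 10 genes. All 10 passed the test between A549 WT B and HCT116 WT B (edgeR quasi-likelihood test, adjusted p below 0.1), where 62.9% of 27882 genes tested passed, 31.2% higher and 31.7% lower in A549. In bulk RNA, fewer expressing cells in a culture and less RNA per cell cannot be told apart. The median log2(fold change) of the members was -0.65, against -0.02 over all genes tested. Other snoRNA host lncRNAs did not share this direction: of 20 tested, 7 passed as higher and 9 as lower in A549 (median -0.11). The members named below are in order of their roles, box C/D hosts first.

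GAS5, a box C/D host whose lncRNA accumulates in growth arrest, was at 148, 162 and 167 CPM in A549 WT B and at 295, 283 and 294 CPM in HCT116 WT B. The groups were well apart, with a log2(fold change) of -0.61 ± 0.04 (SE, adjusted p = 1.85e-05). ZFAS1, host of the SNORD12 snoRNAs, was at 77.9, 73.9 and 71.3 CPM in A549 and 103, 104 and 115 CPM in HCT116, again without overlap (-0.27 ± 0.09, adjusted p = 0.034). SNHG1, host of SNORD22 and the SNORD25 cluster, was at 141, 139 and 163 CPM against 276, 267 and 300 CPM (-0.67 ± 0.06, adjusted p = 8.65e-05). These 3 hosts differed in the same direction.

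SNHG5, host of the SNORD50 snoRNAs, was the exception. It was at 110, 106 and 91.1 CPM in A549 and at 84.8, 88.0 and 97.4 CPM in HCT116, and the libraries overlapped on the CPM scale. After TMM scaling it was higher in A549 (0.45 ± 0.11, adjusted p = 0.012), but with scaling by library totals the difference was 0.18 and did not pass (adjusted p = 0.118). SNHG6, host of SNORD87 and the lowest of the 10 per kilobase in A549 WT B and HCT116 WT B, was at 6.47, 4.17 and 3.49 CPM against 10.4, 13.3 and 12.2 CPM (-1.06 ± 0.27, adjusted p = 0.013). Its 3 A549 libraries all lay below the 3 HCT116 libraries.

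Among the H/ACA hosts, SNHG3, which carries SNORA73A and SNORA73B, was at 152, 152 and 162 CPM in A549 and 311, 306 and 316 CPM in HCT116 (-0.74 ± 0.05, adjusted p = 1.41e-05). SNHG8, host of SNORA24, was at 31.9, 30.6 and 33.4 CPM against 66.8, 67.6 and 71.1 CPM (-0.84 ± 0.07, adjusted p = 2.98e-05). SNHG7, host of SNORA17A and SNORA17B, differed least of the H/ACA hosts (-0.37 ± 0.07, adjusted p = 0.0025), and SNHG15, host of SNORA9, was intermediate (-0.63 ± 0.08, adjusted p = 0.00041). In all 4 the A549 and HCT116 libraries did not overlap. For 11745 of the genes tested (42.1%) the A549 libraries also lay below the HCT116 libraries without overlap.

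SNHG12, which hosts SNORD99, SNORA16A, SNORA44 and SNORA61, had the widest gap. It was at 38.2, 37.6 and 36.8 CPM in A549 and at 126, 114 and 128 CPM in HCT116, a 2.72-fold lower level after TMM scaling (-1.44 ± 0.07, adjusted p = 3.35e-06). SNHG12 and SNHG6 were the 2 members that also passed |log2(fold change)| > 1, a threshold passed by 35.7% of all genes tested. On the CPM scale, without TMM, the 10 genes summed to 802 to 827 CPM in A549 WT B and 1404 to 1500 CPM in HCT116 WT B.

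**Figure D1:**
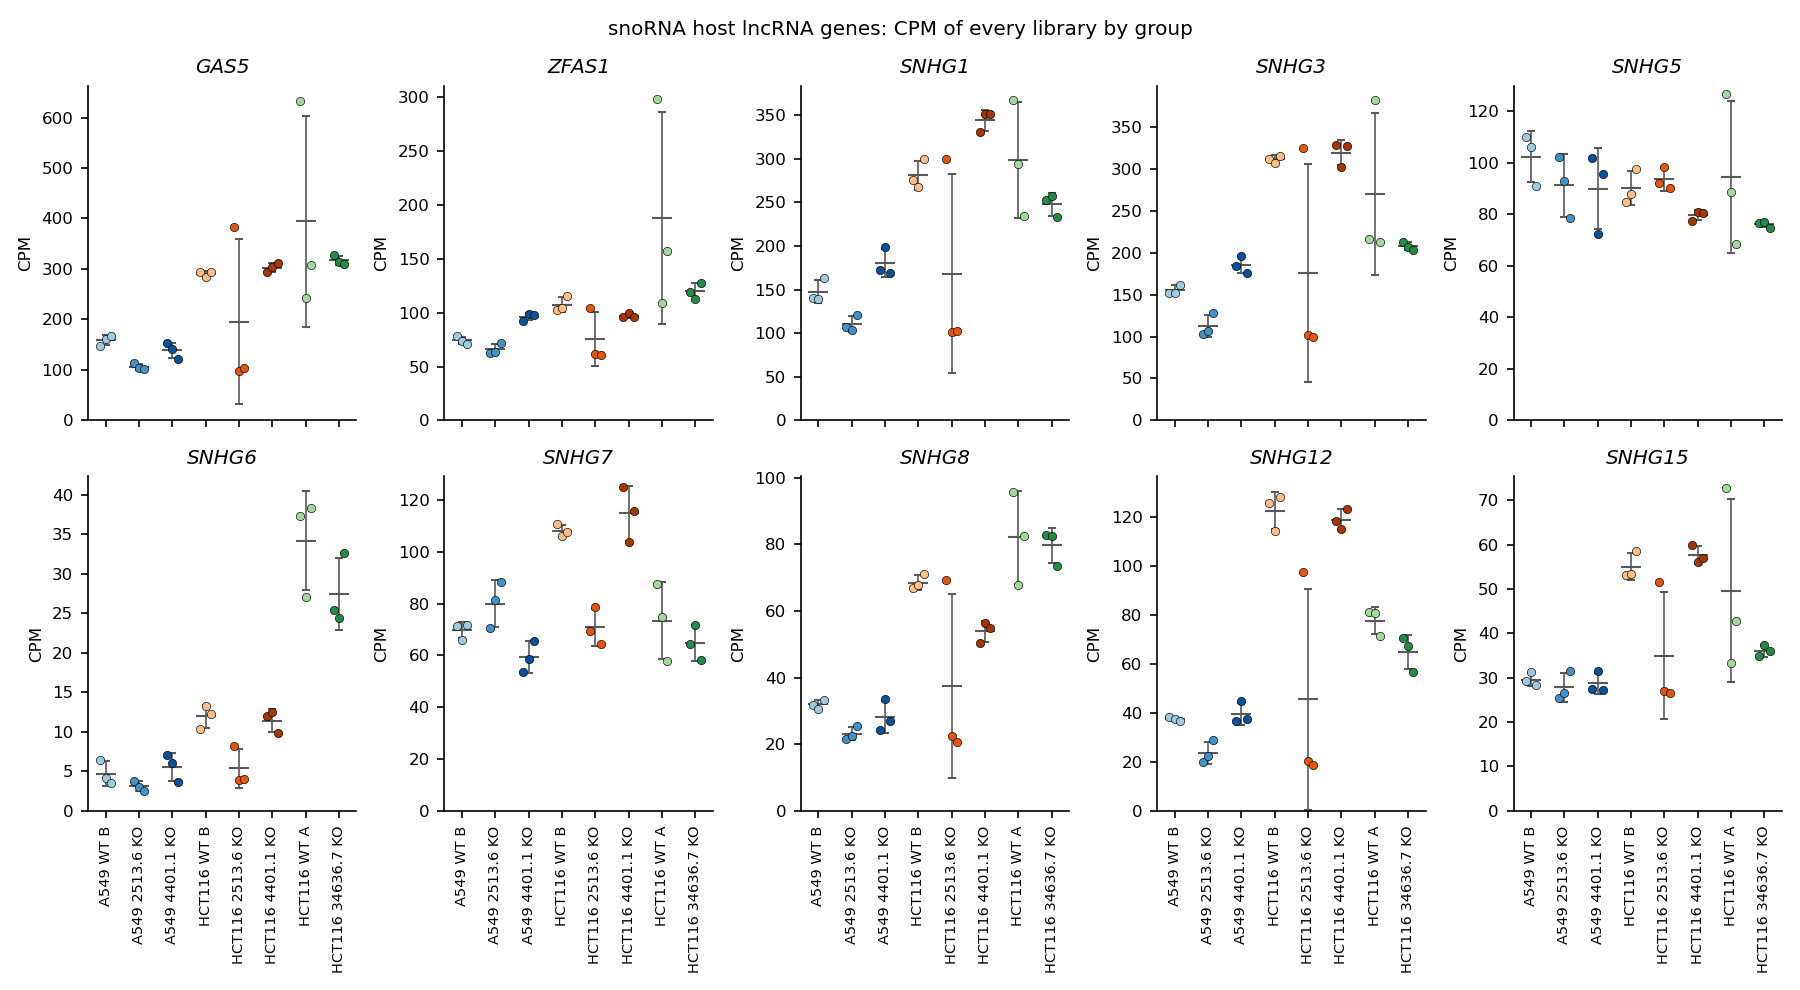
CPM (linear axes from 0) of the 10 host lncRNA genes in each of the 24 libraries by group, with group mean and SD as bars. A549 groups are blue, HCT116 groups of the S-numbered libraries orange and the 1A to 3A libraries green. For SNHG12 the A549 WT B libraries sit between 36.8 and 38.2 CPM and the HCT116 WT B libraries between 114 and 128 CPM, and 2 of the 3 HCT116 MSTRG.2513.6 KO libraries sit at 18.8 and 20.2 CPM.

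Levels were compared between genes only per length. Per kilobase of the GENCODE canonical transcript GAS5 was highest in HCT116 WT B, at a level of 378 CPM per kb, followed by SNHG1 at 242 and SNHG3 at 141 CPM per kb, and SNHG6 was lowest at 6.56 CPM per kb. In A549 WT B GAS5 was again first (207 CPM per kb) and SNHG6 last (2.59 CPM per kb). The order at the top depends on the length used. Per kilobase of all annotated exonic sequence, which is 4932 bases for GAS5 against a canonical 768, SNHG3 was highest in HCT116 WT B (76.1 CPM per kb), then SNHG1 (70.7) and GAS5 (58.9), and SNHG6 remained last (4.73). In HCT116 WT A GAS5 was first by either length (513 and 79.9 CPM per kb), while SNHG6 ranked 8 of 10 per canonical kilobase (18.8) and 7 by exonic sequence (13.5). Which transcript of each gene was counted is not given in the sources used here.

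In A549 MSTRG.2513.6 KO, host lncRNAs were lower than in A549 WT B. Of the 10 genes 5 fell, 0 rose and 9 had a negative log2(fold change), where 5.97% of 25666 genes tested passed (3.19% lower and 2.77% higher) and 53.5% were negative. The members' median was -0.44, against -0.03 over all genes tested. None reached |log2(fold change)| > 1, which 2.92% of genes did.

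GAS5 was at 113, 103 and 101 CPM in A549 MSTRG.2513.6 KO, all below the A549 WT B libraries given above (-0.58 ± 0.10, adjusted p = 0.019). SNHG12 was at 20.05, 22.3 and 28.8 CPM (-0.67 ± 0.14, adjusted p = 0.043), a level 37.3% lower than in wild type. SNHG3 was at 103, 107 and 128 CPM (-0.47 ± 0.10, adjusted p = 0.042). SNHG12 and SNHG3 lie near each other on chromosome 1, from 28578538 to 28583132 and from 28505980 to 28510892, on opposite strands.

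SNHG8 was at 21.6, 22.4 and 25.4 CPM (-0.47 ± 0.11, adjusted p = 0.059) and SNHG1 at 107, 104 and 121 CPM (-0.42 ± 0.09, adjusted p = 0.055). In each of the 5 genes that fell, the KO libraries lay below the wild-type libraries without overlap, as they did for 12.1% of genes tested. ZFAS1 (-0.18, adjusted p = 0.45), SNHG5 (-0.17, adjusted p = 0.65), SNHG6 (-0.61, adjusted p = 0.38) and SNHG15 (-0.09, adjusted p = 0.76) did not pass, nor did SNHG7, the only positive value (0.19, adjusted p = 0.42).

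Of 20 other snoRNA host lncRNAs tested, 3 fell and 0 rose, among them SNHG25 (-1.09 ± 0.26, adjusted p = 0.072) and DANCR (-0.79 ± 0.16, adjusted p = 0.037). Genes that share the 5′TOP element did not pass: 0 of 79 ribosomal protein genes (median -0.10) and 0 of 16 5′TOP translation factors (median -0.11), with 4 and 0 at an unadjusted p below 0.05 and 0 and 0 by DESeq2. Their values were mostly small and negative, with 66 ribosomal protein genes below 0 and 13 above. Of the translation factors 15 were below 0 and 1 above, where 53.5% of all genes tested were negative. The protein partners of snoRNAs and the NMD factors did not pass either, with 0 of 4 box C/D proteins, 0 of 4 H/ACA proteins, 0 of 9 assembly factors (1 by DESeq2) and 0 of 14 NMD factors. Unadjusted p was below 0.05 for 0, 0, 2 and 1 of them.

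The 5 calls in A549 MSTRG.2513.6 KO were sensitive to single libraries. With each of the 6 libraries left out in turn, GAS5 passed in 4 of 6 fits and SNHG1, SNHG3, SNHG8 and SNHG12 in 1 of 6 each, while each of their log2(fold change) values stayed between -0.80 and -0.38; without the second KO library, or without the second A549 WT B library, 0 members passed.

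A549 MSTRG.4401.1 KO gave another pattern. ZFAS1 was at 92.7, 98.4 and 97.6 CPM and rose (0.29 ± 0.11, adjusted p = 0.073), whereas GAS5, at 153, 141 and 122 CPM (-0.28 ± 0.10, adjusted p = 0.06), and SNHG7, at 53.8, 58.6 and 65.7 CPM (-0.31 ± 0.12, adjusted p = 0.086), fell. GAS5 overlapped its wild-type libraries, whereas ZFAS1 lay above and SNHG7 below theirs, as 28% and 20% of genes did. Here 43.7% of 24979 genes tested passed (21.3% higher and 22.4% lower), so 3 of 10 is below the background share.

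None of the 3 passed at an adjusted p below 0.05, and without 1 library each 0 to 2 members passed, 0 without the second or the third A549 WT B library. The calls also turned on the scaling. The median of all genes was 0.12 on the log2 scale with TMM, 0.28 with upper-quartile normalization and 0.20 with library totals. Under upper-quartile normalization and under library totals, 3 members rose and 0 fell: ZFAS1 (0.46 and 0.37), SNHG1 (0.38 and 0.29) and SNHG3 (0.35 and 0.26). GAS5 was then at -0.11 and -0.20 and SNHG7 at -0.14 and -0.23, neither passing, and with DESeq2 GAS5 and SNHG7 fell while ZFAS1 did not pass. SNHG1 was at 173, 199 and 170 CPM and SNHG3 at 184, 196 and 176 CPM, above every A549 WT B library on the CPM scale.

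Genes of lists around the snoRNA pathway are set here against the 22.4% of all genes that fell in A549 MSTRG.4401.1 KO. Of 79 ribosomal protein genes 57 fell and 0 rose (median -0.52), including RPL7A (-1.18 ± 0.17, adjusted p = 0.0021) and RPL35 (-1.10 ± 0.24, adjusted p = 0.010). Under the 3 other scalings 43 to 64 of the 79 fell and 0 rose. Their summed level was 21016 to 29485 CPM, against 34437 to 37734 CPM in A549 WT B. Of 16 5′TOP translation factors 11 fell, led by EEF1B2 (-0.79 ± 0.16, adjusted p = 0.0069) and EIF3E (-0.70 ± 0.15, adjusted p = 0.0088).

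Among the snoRNA-binding proteins, 3 of 4 box C/D proteins fell, including the methyltransferase FBL (-0.78 ± 0.14, adjusted p = 0.0048) and SNU13 (-0.81 ± 0.13, adjusted p = 0.0031). All 4 H/ACA proteins fell, including the pseudouridine synthase DKC1 (-0.82 ± 0.11, adjusted p = 0.0015) and GAR1 (-1.12 ± 0.45, adjusted p = 0.088). Of 9 assembly factors 6 fell, led by NOLC1 (-0.77 ± 0.15, adjusted p = 0.0063) and SHQ1 (-0.66 ± 0.11, adjusted p = 0.0036). Of 14 NMD factors 4 fell, a share close to that of all genes (22.4%), among them the exon-junction protein EIF4A3 (-1.11 ± 0.13, adjusted p = 0.00077) and SMG8 (-1.09 ± 0.13, adjusted p = 0.0011). Of 20 other host lncRNAs tested 1 rose, SNHG22 (0.83 ± 0.33, adjusted p = 0.081), and 4 fell, no more than that share, led by MEG8 (-2.97 ± 0.28, adjusted p = 0.00032) and SNHG29 (-0.81 ± 0.12, adjusted p = 0.0025). The share of mitochondrial counts was 3.50% to 7.87% in these KO libraries and 1.96% to 2.37% in A549 WT B, and their totals were 25799359 to 33205007 counts against 41563496 to 59466012; the part of these in the differences was not tested.

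**Figure D2:**
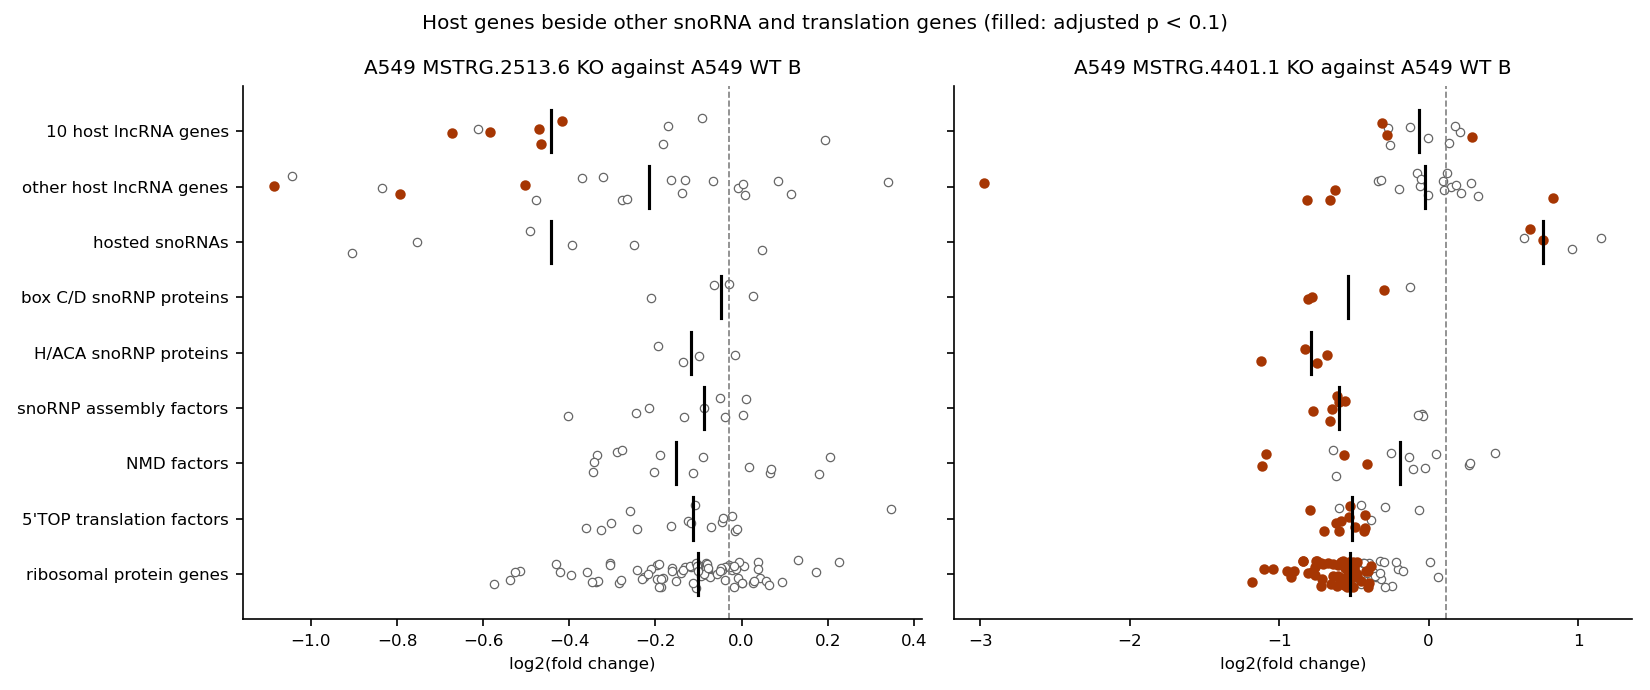
Log2(fold change) of single genes in 9 gene groups for A549 MSTRG.2513.6 KO (left) and A549 MSTRG.4401.1 KO (right), each against A549 WT B, with different x axes. Filled points passed at an adjusted p below 0.1, black lines are group medians and the dashed line is the median of all genes tested. On the left the 10 host genes have a median of -0.44 and the ribosomal protein genes -0.10; on the right these medians are -0.06 and -0.52.

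Both A549 KOs use the same control libraries, so they were also compared directly. In MSTRG.4401.1 KO relative to MSTRG.2513.6 KO 4 members were higher, SNHG1 (0.56 ± 0.12, adjusted p = 0.012), SNHG3 (0.58 ± 0.12, adjusted p = 0.011), SNHG12 (0.60 ± 0.16, adjusted p = 0.024) and ZFAS1 (0.41 ± 0.12, adjusted p = 0.036), and SNHG7 was lower (-0.57 ± 0.14, adjusted p = 0.021). The background share was 37.3% of 25161 genes (17.4% higher and 19.8% lower). SNHG1, SNHG3 and SNHG7 passed in each of the 6 fits without 1 library, SNHG12 in 5 and ZFAS1 in 4. All 5 kept their direction under each scaling tried. Under upper-quartile normalization and library totals GAS5 and SNHG6 were also higher.

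In HCT116 MSTRG.4401.1 KO the libraries of each group lay close together, with a median coefficient of variation of 3.56% over the members against 5.80% in HCT116 WT B, and changes were small. SNHG1 was at 330, 352 and 351 CPM and rose (0.28 ± 0.05, adjusted p = 0.011). SNHG8 was at 50.4, 56.2 and 54.9 CPM and fell (-0.36 ± 0.05, adjusted p = 0.0055), and SNHG5, at 77.5, 80.8 and 80.6 CPM, also fell (-0.19 ± 0.06, adjusted p = 0.082). The KO libraries of all 3 lay outside the wild-type range, as did those of ZFAS1, which was lower (-0.16 ± 0.06, adjusted p = 0.13) without passing; 16.2% of genes lay above and 15.2% below without overlap. Here 16.3% of 26615 genes tested passed (7.57% higher and 8.72% lower), and the members' median was -0.02, the median of all genes being 0.00.

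SNHG1 and SNHG8 passed in all 6 fits without 1 library and SNHG5 in 1 of 6. With all HCT116 libraries in 1 fit, in which S8, S9 and HCT116 WT A add their spread, 0 members passed. The other members did not pass, GAS5 for example at 0.05 ± 0.03 (adjusted p = 0.45). Among other host lncRNAs 3 of 19 fell, including SNHG16 (-0.46 ± 0.05, adjusted p = 0.0013) and SNHG29 (-0.25 ± 0.04, adjusted p = 0.0082), and 2 rose, SNHG17 (0.26 ± 0.06, adjusted p = 0.033) and SNHG32 (0.14 ± 0.04, adjusted p = 0.061). Of 79 ribosomal protein genes 8 fell and 3 rose.

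The effect of MSTRG.4401.1 KO was tested for a difference between A549 and HCT116 with an interaction term over 12 libraries, in which 26.9% of 30134 genes passed (11.6% higher and 15.4% lower). The change in A549 was lower than that in HCT116 for GAS5 (difference -0.36 ± 0.10, adjusted p = 0.023) and SNHG7 (-0.42 ± 0.15, adjusted p = 0.075) and higher for ZFAS1 (0.41 ± 0.12, adjusted p = 0.036). GAS5 passed in all 12 fits without 1 library, ZFAS1 in 10 and SNHG7 in 4. The differences for GAS5 and SNHG7 did not pass under upper-quartile normalization (-0.22, adjusted p = 0.119, and -0.28, adjusted p = 0.192) or library totals (-0.26, adjusted p = 0.168, and -0.32, adjusted p = 0.108), whereas ZFAS1 passed under each scaling.

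**Figure D3:**
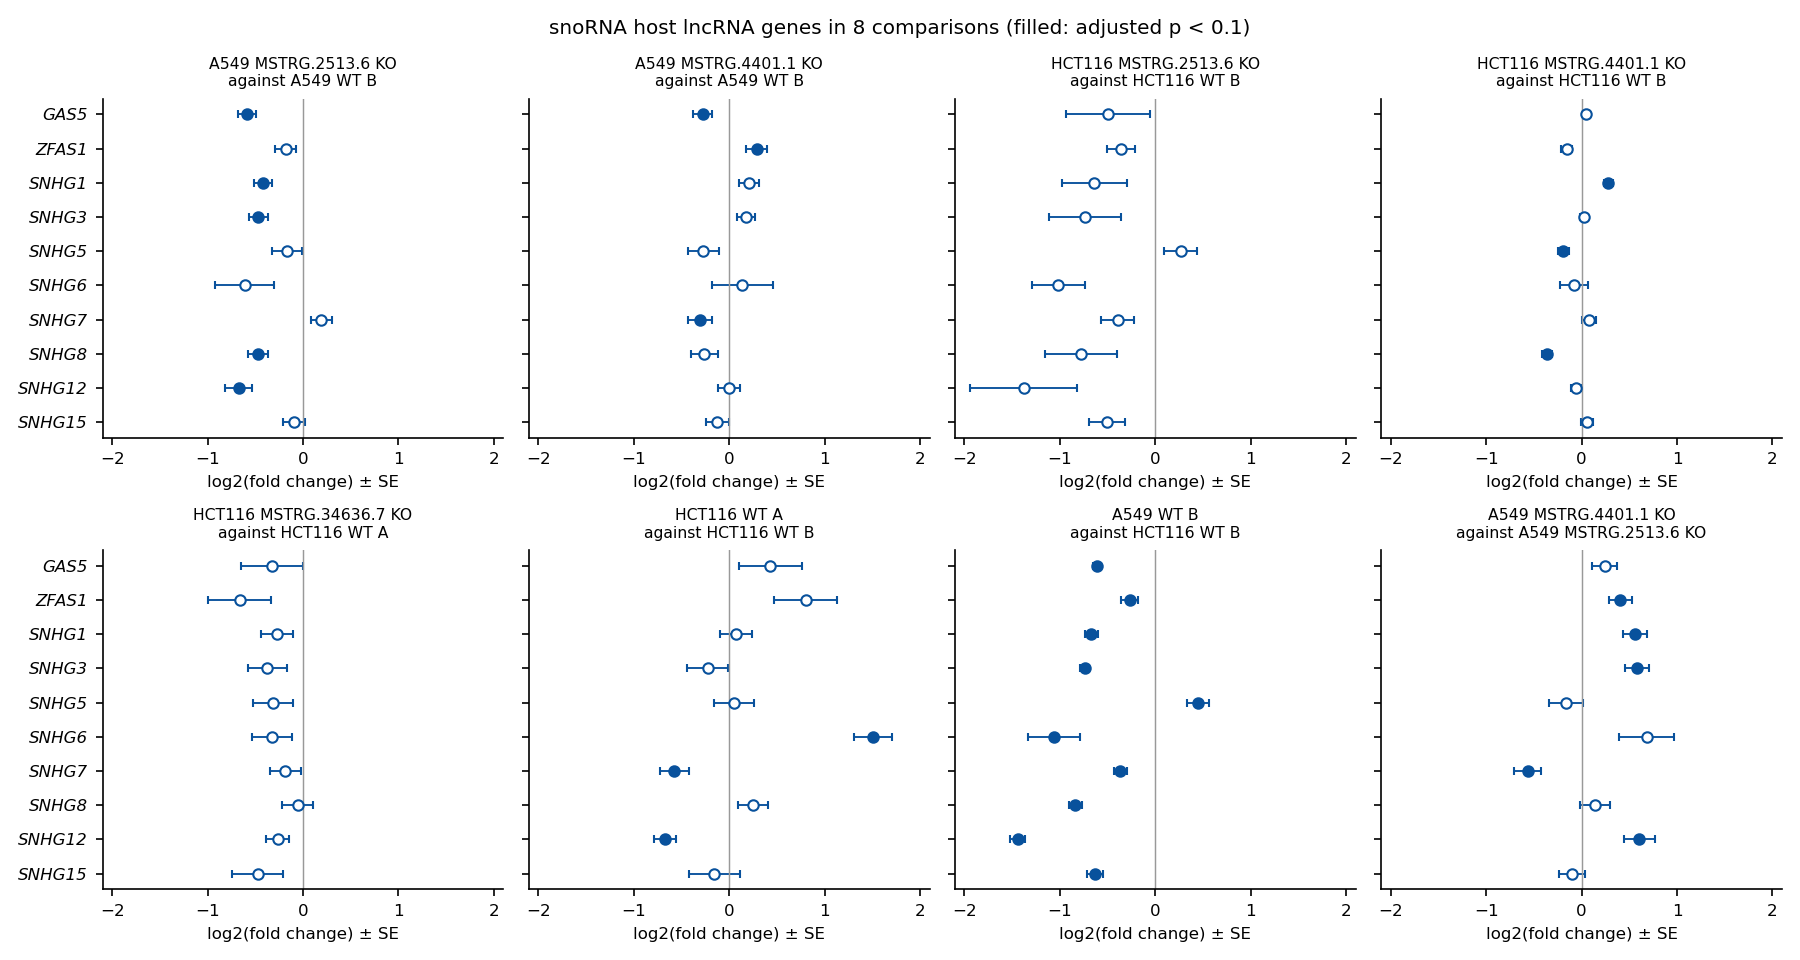
Log2(fold change) with its standard error for the 10 host genes in 8 comparisons; filled points passed at an adjusted p below 0.1. In A549 WT B against HCT116 WT B all 10 are filled, and in HCT116 MSTRG.34636.7 KO against WT A none is, with all 10 values below 0.

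In HCT116 MSTRG.2513.6 KO, the labelled group of 3 libraries had no member past the test (edgeR, 0 of 10; 2 at an unadjusted p below 0.05; 1 by DESeq2), where 1.42% of 26374 genes passed and 20.7% had an unadjusted p below 0.05. SNHG6, SNHG7, SNHG12 and SNHG15 lay below the wild-type libraries without overlap, as 19.2% of genes did; S11 alone was also below them for these 4 genes, with SNHG6 at 8.25 CPM and SNHG15 at 51.4 CPM. The 3 libraries did not resemble each other. GAS5 was at 384 CPM in S11, 97.7 CPM in S8 and 104 CPM in S9, and SNHG12 at 97.4, 20.2 and 18.8 CPM in the same order. SNHG3 was at 325, 102 and 99.3 CPM. SNHG5, whose wild-type CPM overlap between the cell lines, was at 91.9, 98.4 and 90.1 CPM.

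Over the 10 members S8 and S9 were nearest to the mean of A549 MSTRG.2513.6 KO, with a mean absolute log2 difference of 0.113 and 0.155, and 1.25 and 1.28 from HCT116 WT B. S11 was nearest to HCT116 WT B (0.22) and 1.13 from A549 MSTRG.2513.6 KO. The sum of the members was 1501 CPM in S11, 613 CPM in S8 and 591 CPM in S9.

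With all 3 libraries the log2(fold change) values ran from -1.38 ± 0.56 for SNHG12 (adjusted p = 0.24) to 0.26 ± 0.17 for SNHG5 (adjusted p = 0.43), with GAS5 at -0.50 (adjusted p = 0.57), SNHG6 at -1.02 (adjusted p = 0.14) and SNHG7 at -0.40 (adjusted p = 0.28). Without S8 and S9 the group is the single library S11, and its test assumes that it varies like HCT116 WT B. In that fit 4 members passed, where 28.6% of 30219 genes did: GAS5 was higher (0.32, adjusted p = 0.0082) and SNHG7 (-0.72, adjusted p = 0.0014), SNHG12 (-0.42, adjusted p = 0.014) and SNHG6 (-0.62, adjusted p = 0.086) were lower. Without S11 all 10 members passed, where 62.6% of 28577 genes did, with values from -2.33 for SNHG12 to 0.38 for SNHG5. The interaction of MSTRG.2513.6 KO with the cell line gave 0 of 10 members with all libraries (edgeR; 1 at an unadjusted p below 0.05 and 1 by DESeq2; 9.88% of 29852 genes passed and 20.4% had an unadjusted p below 0.05). It gave 3 without S8 and S9, where 10.5% of 33636 genes passed: GAS5 (-0.90, adjusted p = 0.0028), SNHG3 (-0.45, adjusted p = 0.094) and SNHG7 (0.91, adjusted p = 0.010).

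Of the 10 members 3 passed between the HCT116 wild types, whose libraries carry different number series, and the other 7 overlapped. SNHG6 was at 37.2, 27.0 and 38.3 CPM in WT A and at 10.4, 13.3 and 12.2 CPM in WT B, 2.85-fold higher in WT A (1.51 ± 0.20, adjusted p = 0.0023). SNHG12 was at 81.0, 80.6 and 71.4 CPM in WT A and was lower than in WT B (-0.67 ± 0.11, adjusted p = 0.0083), and SNHG7, at 87.6, 74.7 and 58.0 CPM, was lower too (-0.57 ± 0.15, adjusted p = 0.062). These 3 did not overlap between the wild types. The background was 12.3% of 27280 genes (5.56% higher and 6.71% lower; 14.5% and 16.2% without overlap), and 1 member, SNHG6, was past |log2(fold change)| > 1, as were 7.06% of genes.

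WT A was also the most variable of the groups whose markers fit their labels, with a median coefficient of variation of 26.8% over the members against 3.56% to 11.4% in the other 6. Library 1A held GAS5 at 632 CPM and ZFAS1 at 298 CPM, while libraries 2A and 3A held GAS5 at 242 and 308 CPM and ZFAS1 at 109 and 157 CPM. SNHG3 was instead highest in 2A, at 382 CPM, with 216 CPM in 1A and 213 CPM in 3A. SNHG15 was at 72.7, 33.4 and 42.7 CPM in 1A, 2A and 3A. The hosts therefore did not follow a single order across these 3 libraries.

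In MSTRG.34636.7 KO against WT A 0 of 10 members passed (edgeR; 0 at an unadjusted p below 0.05 and 0 by DESeq2), where 2.15% of 28816 genes did and 15% had an unadjusted p below 0.05. All 10 values were negative, from -0.66 ± 0.33 for ZFAS1 to -0.05 ± 0.16 for SNHG8, with a median of -0.32, and 51.7% of all genes were negative. Without library 1A of WT A, GAS5 was at 0.19 and SNHG8 at 0.07 and 0 members passed. The KO libraries themselves lay close together: GAS5 was at 328, 314 and 309 CPM, ZFAS1 at 119, 113 and 128 CPM and SNHG3 at 213, 207 and 204 CPM. SNHG12, at 70.5, 67.2 and 56.9 CPM, was the only member below all WT A libraries (-0.27 ± 0.12, adjusted p = 0.35), as were 10.1% of genes tested.

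Set against WT B, 9 of the 10 members passed, where 45.9% of 27971 genes did. SNHG6, at 25.4, 24.4 and 32.7 CPM in MSTRG.34636.7 KO, was then higher (1.18, adjusted p = 0.00097), as it was in WT A. SNHG12 (-0.94, adjusted p = 7.09e-05), SNHG7 (-0.76, adjusted p = 0.000103), SNHG15 (-0.63, adjusted p = 0.00022) and SNHG3 (-0.60, adjusted p = 2.08e-05) were lower. In that comparison the KO cannot be told apart from the library series, since all libraries numbered 1A to 3A are on one side.

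**Figure D4:**
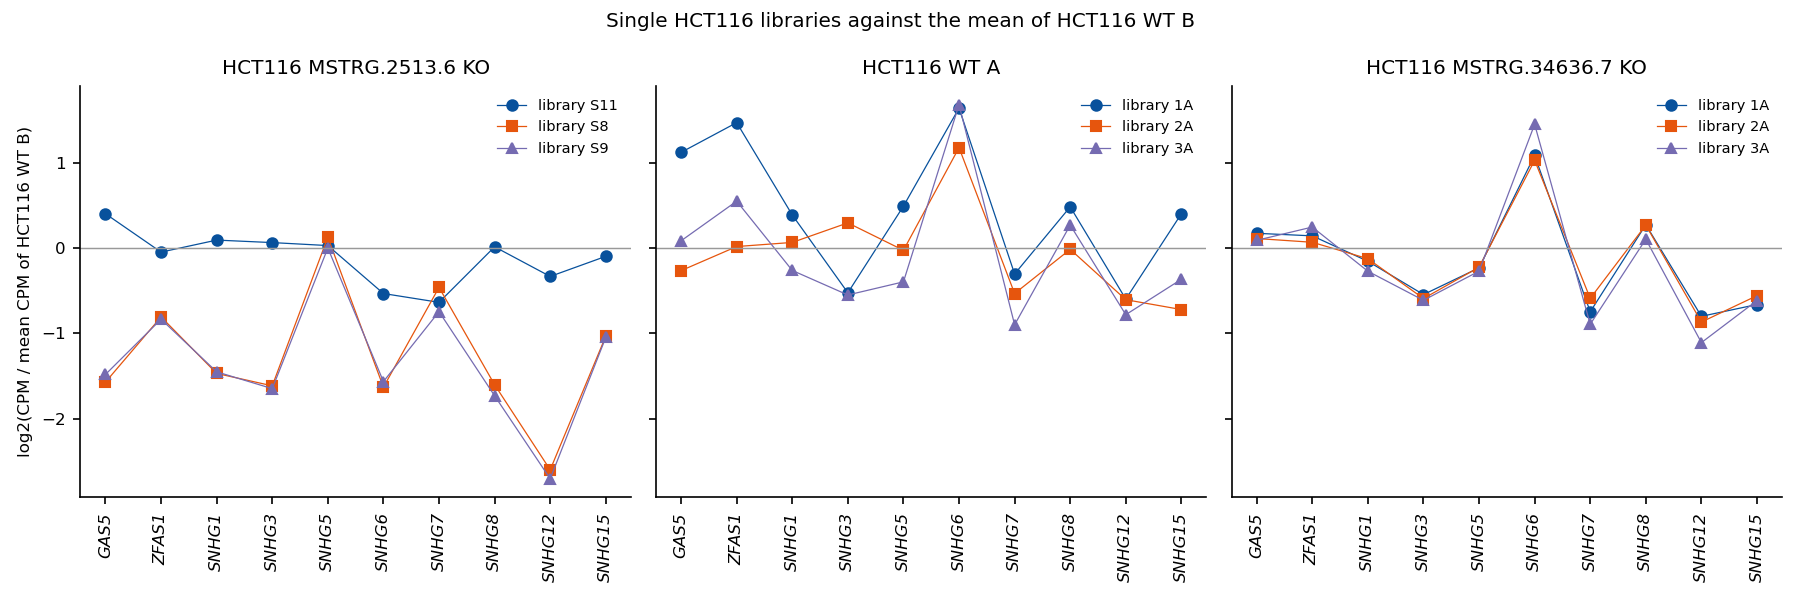
Log2 of each library's CPM over the mean CPM of HCT116 WT B for the 10 host genes in HCT116 MSTRG.2513.6 KO, HCT116 WT A and HCT116 MSTRG.34636.7 KO, with 1 line per library that only joins points. S8 and S9 overlie each other below S11 except at SNHG5 and SNHG7, the 3 WT A libraries cross, and SNHG6 is above 1 in all 6 libraries numbered 1A to 3A.

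The snoRNAs themselves were mostly not measured. Of 34 snoRNAs listed for the 10 hosts 21 had counts, 12 had a median of 1 count or less over the libraries and 6 a median of 10 or more, and a count of exactly 1 occurred for 1259 to 1921 genes in every library. Libraries of this kind lose most RNA of snoRNA length, and reads from a host intron cannot be told from the snoRNA in it. The 13 other snoRNAs were not analysed here.

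ZFAS1 is the host with the best-counted box C/D snoRNAs. In A549 MSTRG.4401.1 KO, SNORD12B was at 4.19, 4.50 and 4.27 CPM against 2.33, 2.64 and 2.72 CPM in A549 WT B (0.68 ± 0.19, adjusted p = 0.028). SNORD12C was at 7.26, 7.75 and 7.62 CPM against 4.38, 3.11 and 5.15 CPM (0.77 ± 0.21, adjusted p = 0.026). Both rose in the comparison in which ZFAS1 rose, and neither overlapped, where 28% of genes also lay above without overlap. All 5 hosted snoRNAs tested in this comparison had positive values (median 0.77), of which only SNORD12B and SNORD12C passed. Of all genes tested, 21.3% passed as higher. In HCT116 MSTRG.4401.1 KO neither passed (0.13, adjusted p = 0.76, and 0.12, adjusted p = 0.60). The difference between the cell lines was 0.51 ± 0.27 for SNORD12B (adjusted p = 0.21) and 0.61 ± 0.24 for SNORD12C (adjusted p = 0.09998, just inside the threshold).

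SNORD25, hosted by SNHG1, was at 0.357, 0.202 and 0.241 CPM in A549 WT B and at 1.75, 1.43 and 1.76 CPM in HCT116 WT B (-2.34 ± 0.32, adjusted p = 0.00053), the direction of its host. SNORD99, hosted by SNHG12, was likewise lower in A549 (-1.71 ± 0.40, adjusted p = 0.0078). Counts in A549 WT B were low, at 10 to 21 for SNORD25 and 7 to 20 for SNORD99. Of 7 hosted snoRNAs tested in this comparison 6 had negative values, and only these 2 passed. Of all genes tested, 31.7% passed as lower in A549.

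SNORA73A and SNORA73B, hosted by SNHG3, differed between the HCT116 wild types. SNORA73B was at 7.69, 10.7 and 7.81 CPM in HCT116 WT A and at 73.5, 111 and 104 CPM in WT B (-3.48 ± 0.21, adjusted p = 4.62e-05). SNORA73A was at 14.7, 3.95 and 11.8 CPM against 34.7, 64.3 and 62.1 CPM (-2.40 ± 0.47, adjusted p = 0.018). SNHG3 did not pass in the same comparison (-0.23 ± 0.21, adjusted p = 0.59). In MSTRG.34636.7 KO, SNORA73A was at 1.88, 0.235 and 0.160 CPM (-3.76 ± 0.93 against WT A, adjusted p = 0.12) while SNORA73B was at 8.40, 7.89 and 10.7 CPM (0.05 ± 0.21, adjusted p = 0.93). The 2 snoRNAs are near-identical in sequence, so reads could be split between them.

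RCC1, a guanine nucleotide exchange factor for Ran, starts 37 bases from the GENCODE canonical start of SNHG3 on the same strand. The spans of these genes overlap, and how reads of the shared stretch were assigned is not given in the sources used here. RCC1 was at 82.3, 67.2 and 61.4 CPM in WT A and 176, 172 and 169 CPM in WT B (-1.31 ± 0.14, adjusted p = 0.00072), and at 22.9, 29.4 and 23.2 CPM in MSTRG.34636.7 KO (-1.49 ± 0.16 against WT A, adjusted p = 0.0093). In library S11 RCC1 was at 75.7 CPM, below the WT B libraries, with SNHG3 at 325 CPM, above them. In A549 MSTRG.4401.1 KO RCC1 fell (-0.60 ± 0.13, adjusted p = 0.0090) and SNHG3 was at 0.18 ± 0.09 (adjusted p = 0.17). Between the cell lines the direction was the same: RCC1 was lower in A549 WT B than in HCT116 WT B (-0.71 ± 0.08, adjusted p = 0.00020), as SNHG3 was.

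**Figure D5:**
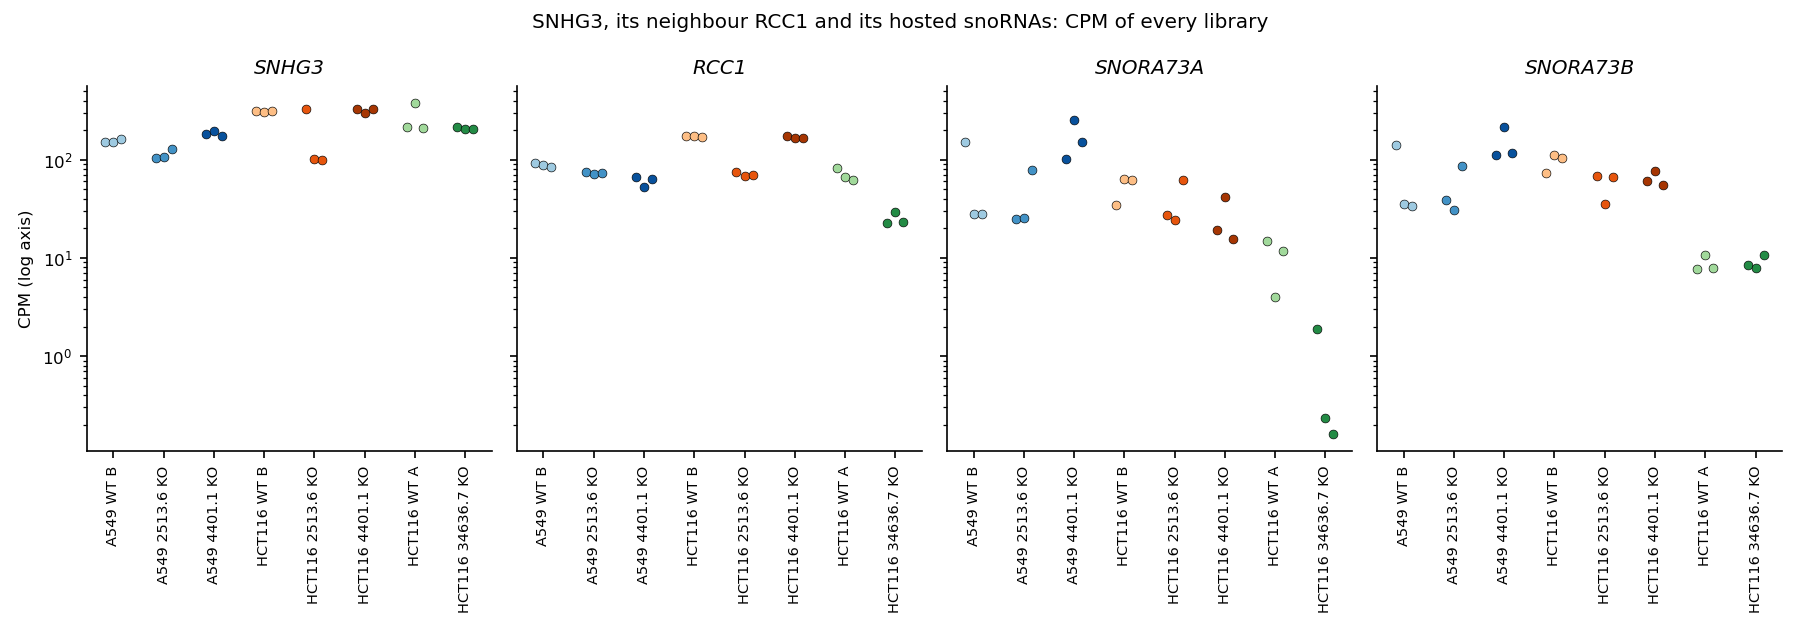
CPM on a log axis of SNHG3, RCC1, SNORA73A and SNORA73B in every library by group, in the same colours as the plot of all members. SNORA73B lies between 7.69 and 10.7 CPM in the 6 libraries numbered 1A to 3A and at or above 30.6 CPM in all others, while SNHG3 in those 6 libraries lies between 204 and 382 CPM.

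Other members share a start region with a coding gene on the opposite strand. SLC3A2, a subunit of an amino acid transporter, starts 82 bases from SNHG1. It was higher in A549 WT B than in HCT116 WT B (2.01 ± 0.09, adjusted p = 1.66e-06), where SNHG1 was lower, and it fell in A549 MSTRG.4401.1 KO (-0.75 ± 0.15, adjusted p = 0.0068), where SNHG1 was at 0.21 ± 0.10. ZBTB37, 93 bases from GAS5, rose in A549 MSTRG.4401.1 KO (0.33 ± 0.10, adjusted p = 0.030), where GAS5 fell with TMM scaling. ZNFX1, 216 bases from ZFAS1, fell there (-0.27 ± 0.09, adjusted p = 0.050), where ZFAS1 rose. Between the wild types ZBTB37 (-0.83 ± 0.06, adjusted p = 1.6e-05) and ZNFX1 (-0.62 ± 0.05, adjusted p = 4.66e-05) were lower in A549, as GAS5 and ZFAS1 were. SNHG5 starts 15 bases from an annotated coding gene on the same strand, ENSG00000271793, for which no level is given here. SNHG6, SNHG7, SNHG8, SNHG12 and SNHG15 had no coding gene starting within 2000 bases.

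How far the 10 genes followed one another was described by Pearson's r, taken within each cell line over the 9 A549 libraries and the 13 HCT116 libraries without S8 and S9, with the lower of the 2 kept. The libraries share depth, scaling and group structure, so these values have no p. SNHG3 and SNHG12 were the most alike pair (0.94 in A549, 0.76 in HCT116). Against the mean of the 10, GAS5 had 0.83 and 0.72 and ranked 3 of 10898 genes, SNHG1 ranked 21 and ZFAS1 46. SNHG3 (0.73 and -0.11) and SNHG7 (-0.19 and 0.36) did not follow the mean in both lines. Since each member is part of the mean, its own value is raised by itself.

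Genes outside the list that were among the most like the mean were PVR (0.86), ROR2 (0.78), DYNLL2 (0.70), H2AC6 (0.68), SDCCAG8 (0.68), FAM222B (0.67), H2BC21 (0.67), UPF2 (0.66) and C20orf96 (0.66). Over all 24 libraries together, PVR was at -0.13 and DYNLL2 at 0.93. There each gene was centred on its mean within the labelled cell line, with S8 and S9 among HCT116. This removed only the difference between the labelled lines. S8 and S9, whose markers go against their labels, keep a cell-line contrast within the libraries labelled HCT116.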

How the data were processed

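RNA was depleted of ribosomal RNA and sequenced from a directional kit. The submitters' processing notes name Trim Galore 0.6.6, FastQC 0.11.9, HISAT2 2.2.1 and hg38, and the paper's methods name StringTie. The authors deposited raw whole-number counts per gene symbol, 1 table per library, not normalized and not pooled. The annotation release, the use of strand and the step to whole counts are not given in the sources used here, so reads of overlapping or antisense genes cannot be told apart.

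CPM is counts over the library total of 60641 shared symbols; 3 symbols listed only in the 1A to 3A libraries were left out. Each comparison was fitted on its own with edgeR 4.0.16 (R 4.3.3, limma 3.58.1): TMM, filterByExpr, glmQLFit, glmQLFTest and Benjamini-Hochberg adjustment over all genes tested. "Passed" means an adjusted p below 0.1 (log2 changes are first minus second group, SE from the F statistic). An exact permutation test of 3 against 3 cannot go below 0.1 and was not used. The tests were checked on simulated counts. Alternatives were DESeq2 1.42.0, 2 other scalings, other filters and thresholds, other controls, each library left out and a replicate block. A KO numbered 1A to 3A was compared with WT A, the others with WT B.

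Positions and neighbours came from GENCODE 44. All 10 members are named, and from each other list at most the 2 largest and 2 most negative changes that passed. Members and lists were chosen with earlier results of these data known. One item named by the rule is not reported here.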

Additional observations from a re-analysis of the deposited data

Results flagged for a closer look

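For 3 members the change in MSTRG.4401.1 KO differed between A549 and HCT116 by an interaction term (edgeR, adjusted p below 0.1), a share near the 26.9% of all genes that did: GAS5 at -0.36 (adjusted p = 0.023), ZFAS1 at 0.41 (adjusted p = 0.036) and SNHG7 at -0.42 (adjusted p = 0.075), each as the A549 change minus the HCT116 change on the log2 scale. GAS5 was at -0.28 in A549 and 0.05 in HCT116, ZFAS1 at 0.29 and -0.16, and SNHG7 at -0.31 and 0.08. The values for GAS5 and SNHG7 did not pass with upper-quartile normalization or library totals. Groups of 3 are too small for a check for single outlying libraries.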

How the results depend on the processing

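Of the fits that left out 1 library, those where a member passed with all libraries kept the call in 151 of 210 and lost it in 59, with 0 turning direction. Without 1 library each, 0 to 5 members passed in A549 MSTRG.2513.6 KO, 0 to 2 in A549 MSTRG.4401.1 KO, 0 to 10 in HCT116 MSTRG.2513.6 KO, 2 to 3 in HCT116 MSTRG.4401.1 KO, 0 in MSTRG.34636.7 KO, 2 to 5 between the HCT116 wild types, 9 to 10 between the cell lines, 3 to 6 between the A549 KOs, 1 to 3 for the cell-line difference of MSTRG.4401.1 and 0 to 9 for that of MSTRG.2513.6, in which GAS5 ran from -0.34 to 0.66. Under the other settings 194 of 227 calls were kept. With a fold threshold of |log2(fold change)| > 1, 0 members passed in A549 MSTRG.2513.6 KO, A549 MSTRG.4401.1 KO, HCT116 MSTRG.4401.1 KO, between the A549 KOs and for the cell-line difference of MSTRG.4401.1, 1 between the HCT116 wild types and 2 between the cell lines. At an adjusted p below 0.05, 3 passed in A549 MSTRG.2513.6 KO (also 3 with no filter on low counts) and 0 in A549 MSTRG.4401.1 KO. With 1 fit per cell line, 3 passed in HCT116 MSTRG.2513.6 KO and 0 in HCT116 MSTRG.4401.1 KO. With the other HCT116 wild type as control, 1 passed in MSTRG.2513.6 KO, 5 in MSTRG.4401.1 KO (SNHG12 turning to 0.60) and 9 in MSTRG.34636.7 KO (GAS5 turning to 0.10, SNHG6 to 1.18 and SNHG8 to 0.19). Without S8 and S9, 4 passed in HCT116 MSTRG.2513.6 KO (GAS5 turning to 0.32) and 3 in its cell-line difference (SNHG3 turning to -0.45). DESeq2 gave 1 in each of these, and upper-quartile normalization, library totals and a minimum of 10 counts gave 1 in the difference. Library totals left 1 for the cell-line difference of MSTRG.4401.1. The likeness of PVR over all 24 libraries was -0.13. Genes past both thresholds numbered 246 in HCT116 MSTRG.2513.6 KO and 2764 by DESeq2, and 385 and 887 in MSTRG.34636.7 KO. Where no value is given for it, the cause was not tested.

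Labels share the numbers 1 to 3 across groups, and the correlation of same-numbered deviations was between -0.0788 and 0.0376, so the numbers were not taken to pair libraries. With a replicate block, 0 members and 166 genes (385 without it) were past the thresholds in MSTRG.34636.7 KO, where each library correlated best with its own number, a hint from the data only. The block left 3 members between the HCT116 wild types and 10 between the cell lines.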
